A study of Mus musculus with 12 samples.

Results

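The complement and coagulation genes were 46 genes picked by their symbol from the 54532 genes of a count table, by a rule that reads no measured values. All 46 symbols were found. They encode plasma proteins of innate defence and of blood clotting, and are ordered below by role. The table held RNA-seq counts of liver and of inguinal white adipose tissue, called fat below and WAT in plots. All mice were male, 52 weeks old and fasted for 12 hours, and their vessels were rinsed before the tissues were taken. Mice whose label names a knockout (KO) of miR-322-503-351, a cluster of microRNA genes, were compared with wild-type (WT) mice, with 3 libraries in each of the groups KO liver, WT liver, KO fat and WT fat. The labels name no tissue-specific driver for the deletion, and give neither strain nor whether the libraries of a group came from separate animals. The p-values therefore measure the spread between these libraries.

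Complement is a cascade of proteases and binding proteins that marks microbes and damaged cells for uptake and can end in a membrane pore. Coagulation is a parallel cascade that ends in a fibrin mesh, and fibrinolysis dissolves it again. Hepatocytes make most of these proteins, several of them in larger amounts during the acute phase response to interleukin 6, while macrophages and fat cells are known sources of a few complement components, among them C1q and adipsin.

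The fibrinogen genes are shown by sequence because their chains are built into 1 protein and their liver levels lay close together in each library. The 250 bases before each start site are given below, 5′ to 3′ on the gene's own strand, from RefSeq on build GRCm38.p6. Fga lies at chr3:83025903-83026152 on the plus strand, Fgb at chr3:83049864-83050113 on the minus strand and Fgg at chr3:83007474-83007723 on the plus strand. Capitals mark CTGGGA, known as the core of interleukin 6 response elements.
Fga: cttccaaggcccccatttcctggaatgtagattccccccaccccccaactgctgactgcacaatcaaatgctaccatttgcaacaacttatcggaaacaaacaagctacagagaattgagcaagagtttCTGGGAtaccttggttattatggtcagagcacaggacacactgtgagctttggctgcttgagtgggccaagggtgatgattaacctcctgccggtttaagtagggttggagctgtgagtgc
Fgb: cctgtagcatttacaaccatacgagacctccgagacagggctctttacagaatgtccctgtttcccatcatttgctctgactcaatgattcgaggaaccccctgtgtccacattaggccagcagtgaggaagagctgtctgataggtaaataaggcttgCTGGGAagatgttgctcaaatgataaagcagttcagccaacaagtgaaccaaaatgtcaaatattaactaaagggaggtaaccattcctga
Fgg: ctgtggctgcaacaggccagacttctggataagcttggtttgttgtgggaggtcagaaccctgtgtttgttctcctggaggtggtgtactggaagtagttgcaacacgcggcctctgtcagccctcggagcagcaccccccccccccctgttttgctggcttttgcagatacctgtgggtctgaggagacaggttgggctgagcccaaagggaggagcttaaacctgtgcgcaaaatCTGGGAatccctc
The first base of CTGGGA stood 121, 91 and 13 bases before the start of Fga, Fgb and Fgg. The STAT motif TTCNNNGAA was found in Fga and Fgb, on either strand, and not in the window of Fgg. Of the 46 members, 35 had a promoter in the RefSeq table. CTGGGA was present in 15 of these 35 (42.9%), against 27.0% of 32851 promoters of the same length, counting both strands. TTCNNNGAA was present in 6 (17.1%, against 7.02%). The C/EBP motif TTNNGNAA was present in 17 (48.6%, against 36.8%) and the HNF4 motif TGNCCT in 23 (65.7%, against 51.3%). These letters overlap between motifs in places, and a match was taken as a description only.

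Libraries held 14531438 to 15971178 counts, so that 3 counts in a library correspond to 0.188 to 0.206 counts scaled to a library total of 1000000 (CPM). The genes of the cluster checked the labels. Mir322 had 0 counts in all 6 KO libraries and 0 to 2 in WT liver and 10 to 15 in WT fat libraries, and Mir503 had 0 in all 6 KO libraries and 4 to 8 in WT liver and 10 to 21 in WT fat libraries. Mir351 went against the label, with more counts in KO libraries: 11 to 17 in KO liver against 2 to 5 in WT liver, and 38 to 60 in KO fat against 9 to 13 in WT fat. Hepatocyte markers stood high in liver, with 19 markers summing to 132000 to 137000 CPM in KO liver and 147000 to 153000 CPM in WT liver. The 10 adipocyte markers summed to 39300 to 43900 CPM in KO fat and 33200 to 43700 CPM in WT fat. The members took 3.87% to 4.72% of the counts in KO liver and 3.49% to 4.11% in WT liver, and 0.871% to 1.01% in KO fat and 0.716% to 1.21% in WT fat. In whole-tissue samples, fewer cells of a type and less RNA per cell cannot be told apart.

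The liver comparison asked whether these genes differed between KO and WT mice. One member, the complement gene C4a, rose in KO liver, and 45 of 46 members did not pass the test. Values were above 0 for 38 of 46 members, against 49.9% of all 13529 tested genes. The median log2 fold change was 0.19 over the members. The threshold, an adjusted p under 0.05 in edgeR's quasi-likelihood test with Benjamini-Hochberg adjustment over all tested genes, was passed by 0.155% of all genes, by 0.103% as higher in KO, as C4a was, and by 0.0517% as lower. An unadjusted p under 0.05 was reached by 16 members, against 12.2% of all genes. Groups did not overlap, with KO above, for 12 members (C4a, C4b, C4bp, Masp1, F13b, Fgb, Fgg, Pros1, Klkb1, Kng1, Cpb2 and Serpind1), against 7.71% of all genes. With KO below they did not overlap for 3 members (F2, F12 and Proc), against 11.1% of all genes.

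**Figure D1:**
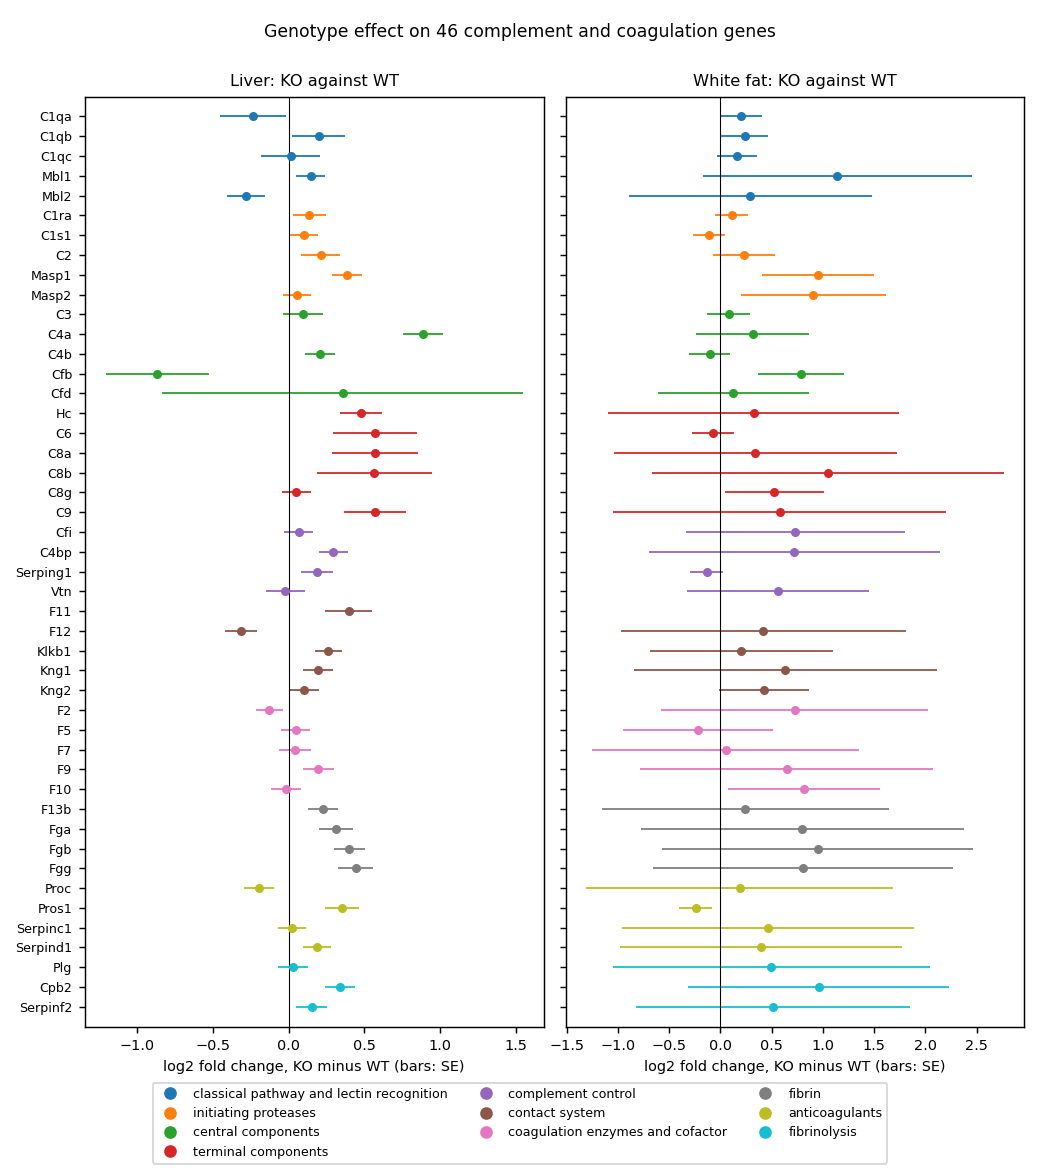
Log2 fold changes, KO minus WT, of the 46 members in liver (left) and fat (right), with bars for the standard error and colours for the role. Most liver points lie right of 0, C4a farthest at 0.89, and the bars in fat are wider for most members. F11 was not tested in fat and has no point there.

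C4a and C4b are close copies on chromosome 17 (GRCm38, 34809092 to 34823464 and 34728380 to 34743882, both on the minus strand). C4b encodes complement component 4, which the classical and lectin pathways cleave, and C4a is known in mice as sex-limited protein, an androgen-dependent relative. C4a had 175, 249 and 204 CPM in KO liver and 132, 107 and 108 CPM in WT liver. All KO libraries lay above all WT libraries. The log2 fold change was 0.89 ± 0.13 (SE; edgeR quasi-likelihood adjusted p = 0.0280), and the means were 209.5 ± 37.5 CPM in KO and 116 ± 14.0 CPM in WT liver (SD, n = 3 each). The call was held in 9 of 16 alternative settings, with log2 fold changes of 0.74 to 1.01 and edgeR, DESeq2 or limma adjusted p of 1.05e-12 to 0.644. It was lost with the replicate number as a block (edgeR adjusted p = 0.0605), with limma voom (0.0693), with the block and the trends on GC share and length removed together (0.0848), with all 4 groups in 1 fit (0.644), and without KO liver 3 (0.0710), WT liver 2 (0.151) or WT liver 3 (0.159).

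C4b had 1851, 2178 and 1863 CPM in KO liver and 1689, 1778 and 1728 CPM in WT liver, again without overlap. Its log2 fold change of 0.21 ± 0.10 did not pass (edgeR adjusted p = 0.416). C4a made up 8.64%, 10.3% and 9.86% of the C4a and C4b counts in KO liver, against 7.24%, 5.67% and 5.89% in WT liver. The Wilson 95% interval of the lowest KO share, 8.33% to 8.96%, lay above that of the highest WT share, 6.94% to 7.55%; these intervals cover counting error only. The mean share was 9.60% ± 0.86 in KO and 6.27% ± 0.85 in WT liver (SD, n = 3 each). The exact permutation test gave a two-sided p of 0.1, the smallest that 3 against 3 libraries allow. Of the 50-base windows of the C4a transcript, 35.2% also occur in the C4b transcript, so reads may have been split or dropped between the copies by the authors' counting.

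**Figure D2:**
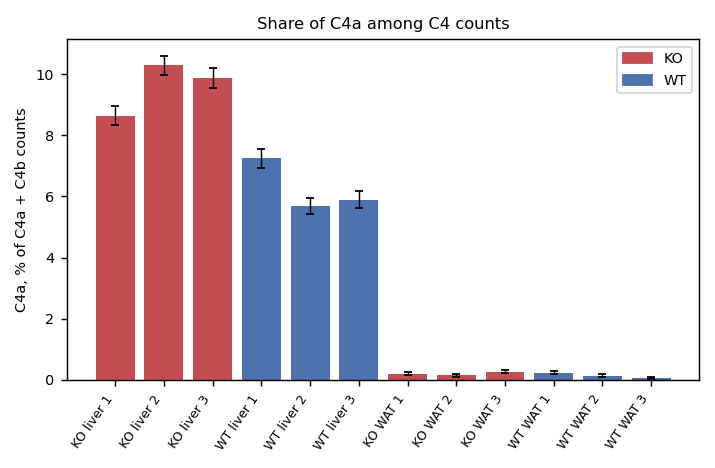
C4a counts as a percentage of C4a plus C4b counts in each library, KO bars in red and WT bars in blue, with Wilson 95% intervals. The KO liver bars stand between 8.64% and 10.3%, all above the WT liver bars, and all 6 fat bars lie under 0.3%.

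The other central components include C3, on which all complement pathways meet. C3 (chromosome 17, 57203970 to 57228136) had the highest level per length among the members in WT liver. It had 6280, 8167 and 5656 CPM in KO liver and 6989, 6623 and 5587 CPM in WT liver. The groups overlapped and the log2 fold change was 0.09 ± 0.13 (edgeR adjusted p = 0.806). Factor B (Cfb), the protease of the alternative pathway, had low levels of 2.71, 1.57 and 1.28 CPM in KO liver and 4.20, 2.51 and 3.65 CPM in WT liver. Its log2 fold change of -0.87 ± 0.34 did not pass (edgeR adjusted p = 0.346). Of the exon bases of Cfb, 79.5% are shared with the readthrough gene Gm20547, which had 0 counts in all 12 libraries, so reads that fit both genes may have been left uncounted. Adipsin (Cfd), the protease that activates factor B, is made mainly by fat cells. In liver it had 12.2, 0.477 and 3.98 CPM in KO and 1.76, 3.29 and 8.18 CPM in WT libraries, an overlap in which no genotype effect was detectable at this depth (0.36 ± 1.19).

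The recognition molecules and initiating proteases start the classical and lectin pathways. Masp1, a protease of the lectin pathway (chromosome 16, 23449417 to 23520815), had 179, 209 and 196 CPM in KO liver and 161, 154 and 142 CPM in WT liver. The groups did not overlap, but the log2 fold change of 0.38 ± 0.10 did not pass (edgeR adjusted p = 0.188). Masp2, the protease that cleaves C4 on the lectin side, had 188, 189 and 189 CPM in KO liver and 184, 196 and 175 CPM in WT liver, and overlapped (0.06 ± 0.09). Both overlap a gene on the other strand, and whether the counting used strand is not known. C1ra, C1s1 and C2, the proteases of the classical pathway, had log2 fold changes of 0.14, 0.10 and 0.21. Of the exon bases of C2, 42.8% are shared with Gm20547, so the limit given for Cfb applies to C2 too. The mannose-binding lectins differed in direction, with 0.14 ± 0.10 for Mbl1 and -0.28 ± 0.13 for Mbl2, and neither passed. The C1q chains are encoded side by side on chromosome 4 and were low in liver. C1qa had 15.6, 11.04 and 7.63 CPM in KO liver and 12.9, 15.0 and 13.1 CPM in WT liver. C1qb had 15.3, 11.8 and 10.2 CPM in KO liver and 9.95, 11.4 and 11.7 CPM in WT liver, and C1qc 13.5, 12.1 and 8.23 CPM in KO liver and 12.1, 12.4 and 9.53 CPM in WT liver. For all 3 chains the groups overlapped, and KO liver 1 was the highest KO library. The 10 macrophage markers summed to 138 to 153 CPM in KO liver and 118 to 130 CPM in WT liver, and their part in the C1q values was not tested.

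The terminal components assemble the membrane pore. Log2 fold changes in liver were 0.57 ± 0.28 for C6, 0.57 ± 0.29 for C8a, 0.57 ± 0.38 for C8b, 0.57 ± 0.21 for C9 and 0.48 ± 0.14 for Hc, which encodes C5. C8g, the remaining chain of C8, which overlaps a gene on the other strand, had 0.05 ± 0.09. None of the 6 passed (edgeR adjusted p = 0.232 to 0.860). Single libraries decided the size of several of them. Without WT liver 1 the values were 0.88 for C6, 0.87 for C8a and 0.94 for C8b, and without KO liver 2 they were 0.38 for C6, 0.36 for C8a and 0.37 for C9. C8b had 0.31 without WT liver 3. Hc (chromosome 2, 34983331 to 35061438) had 1028, 1391 and 1161 CPM in KO liver and 1034, 841 and 751 CPM in WT liver. WT liver 1 lay above KO liver 1, so the groups overlapped. The same held for C6, C8a, C8b and C9, in each of which WT liver 1 exceeded at least 1 KO library. C8a, for instance, had 704.5, 982 and 636 CPM in KO liver and 744, 460 and 395 CPM in WT liver. KO liver 2 was the highest of the 6 libraries for 5 of the 6 terminal components and WT liver 3 the lowest for 4. Over all members, KO liver 2 was the highest for 23 of 46 and WT liver 3 the lowest for 27 of 46. These counts were not taken over all genes, so whether they are particular to the members was not tested.

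**Figure D3:**
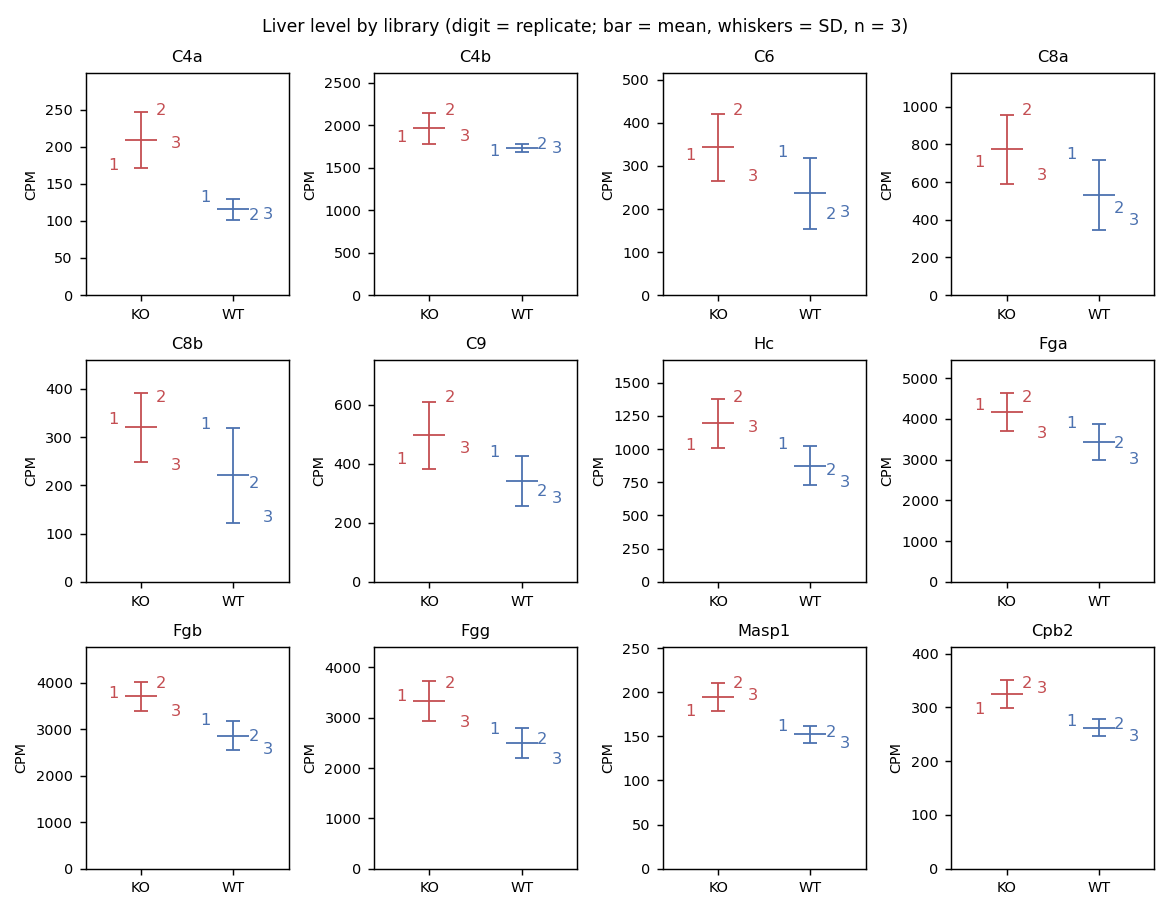
CPM of 12 members in each liver library, KO left of WT, with digits for the replicate number, a bar for the mean and whiskers for the SD. C4a, C4b, Fgb, Fgg, Masp1 and Cpb2 do not overlap between genotypes, whereas WT liver 1 reaches into the KO range for C6, C8a, C8b, C9, Hc and Fga.

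Of the control proteins, C4bp, which binds C4b and helps factor I to inactivate it, had a log2 fold change of 0.30 ± 0.09 without overlap (edgeR adjusted p = 0.267). Factor I (Cfi) had 0.07 and the C1 inhibitor Serping1 0.19. Serping1, which blocks C1 proteases and plasma kallikrein, had 876, 1073 and 879 CPM in KO liver and 908, 853 and 774 CPM in WT liver, and overlapped. Vitronectin (Vtn), which keeps the terminal complex out of membranes, had 2238, 2632 and 1775 CPM in KO liver and 2493, 2221 and 2157 CPM in WT liver. Its KO libraries spread on both sides of the WT libraries (-0.02 ± 0.13).

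Fibrinogen is the precursor of fibrin, and its chains come from Fga, Fgb and Fgg on chromosome 3, whose promoters are printed above. Fga (83026076 to 83033627) had 4319, 4537 and 3649 CPM in KO liver and 3883, 3393 and 3002 CPM in WT liver. Fgb (83040141 to 83049863) had 3778, 3976 and 3373 CPM in KO liver and 3181, 2850 and 2568 CPM in WT liver, and Fgg (83007724 to 83015049) had 3426, 3672 and 2908 CPM in KO liver and 2764, 2573 and 2177 CPM in WT liver. Fgb and Fgg did not overlap between the genotypes, and Fga overlapped through KO liver 3 and WT liver 1. The log2 fold changes were 0.31 ± 0.11 for Fga, 0.40 ± 0.10 for Fgb and 0.44 ± 0.11 for Fgg (edgeR adjusted p = 0.309, 0.183 and 0.183). DESeq2, which called 1.03% of all tested genes, called Fgb (adjusted p = 0.0476) and Fgg (0.0426) besides C4a, and edgeR without a filter on low counts, which called 1.51% of the genes in that fit, called both as well. In liver the Fgb to Fga ratio of levels per length was 0.704 ± 0.022 in KO and 0.662 ± 0.015 in WT libraries, and the Fgg to Fga ratio 1.15 ± 0.01 in KO and 1.05 ± 0.04 in WT libraries (SD, n = 3 each). These ratios were taken from counts without removal of trends on GC share, which was 49.3% for Fga, 44.1% for Fgb and 42.7% for Fgg. F13b, the carrier subunit of the factor that crosslinks fibrin, had 0.23 ± 0.10 without overlap. With the trends on GC share and length removed, the highest log2 fold change of these 4 genes was 0.32. Their median was then 0.31, F13b had 0.08, and the lowest edgeR adjusted p was 0.476.

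None of the coagulation enzymes, nor their cofactor, passed. Log2 fold changes ran from -0.13 for prothrombin (F2) to 0.20 for factor IX (F9), with 0.05 for the cofactor F5, 0.04 for F7 and -0.02 for F10. F2, the precursor of thrombin, had 1826, 1798 and 1625 CPM in KO liver and 1941, 1980 and 1921 CPM in WT liver. Its groups did not overlap, with KO below, and it did not pass (edgeR adjusted p = 0.596). In the contact system, which starts clotting on surfaces and releases bradykinin, F12 had 471, 484 and 383 CPM in KO liver and 585, 526 and 580 CPM in WT liver. F12 therefore lay lower in every KO library (-0.31 ± 0.11, edgeR adjusted p = 0.283), but its value was -0.12 with the trends on GC share and length removed. Its partners had values of 0.40 for F11, 0.26 for prekallikrein (Klkb1), 0.19 for kininogen Kng1 and 0.10 for Kng2.

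Among the anticoagulants, protein S (Pros1) had 60.0, 64.9 and 77.6 CPM in KO liver and 57.7, 53.3 and 51.1 CPM in WT liver, while protein C (Proc), the protease that it assists, had 453, 480 and 388 CPM in KO liver and 516, 528 and 498 CPM in WT liver. The pair did not overlap between genotypes, Pros1 with KO above (0.35 ± 0.11) and Proc with KO below (-0.20 ± 0.10), and neither passed (edgeR adjusted p = 0.279 and 0.450). Antithrombin (Serpinc1) had 0.02 and heparin cofactor II (Serpind1) 0.19. Of the fibrinolysis genes, Cpb2, whose product protects fibrin from plasmin (chromosome 14, 75242287 to 75283555), had 296, 344 and 335 CPM in KO liver and 273, 269 and 245 CPM in WT liver. These did not overlap (0.34 ± 0.10, edgeR adjusted p = 0.237). Plasminogen (Plg) had 0.03 and its inhibitor antiplasmin (Serpinf2) 0.15. Albumin (Alb), a hepatocyte marker outside the members, had 78160, 77170 and 76230 CPM in KO liver and 87140, 93140 and 89120 CPM in WT liver, so KO lay below WT there (-0.19 ± 0.08, edgeR adjusted p = 0.387). Liver fold changes across genes ran with transcript GC share (rho = -0.435), and the members' median GC share was 48.7%, against 49.4% for the tested genes. With that trend and the trend on length removed, 38 of 46 values were above 0, against 6728 of 13529 genes in that fit. C4a had 1.01. An unadjusted p under 0.05 was reached by 14 members, against 1085 of the 13529 genes. Of the 46 values, 12 came more than 1.5 times nearer to 0, 8 moved as much farther from it and 4 turned their sign. Nearer to 0 were F2 (-0.04), F12 (-0.12), Proc (-0.05), C4bp (0.13), F13b (0.08) and F9 (0.02), and farther from it were C4b (0.33) and Serpinf2 (0.26).

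Across tissues, the question was which members fat expresses beside liver. WT liver differed from WT fat for 45 of 46 members (edgeR adjusted p under 0.05), where 70.8% of all 16857 tested genes were called. The same 45 members had an unadjusted p under 0.05, against 72.9% of all genes, and 41 members had a value above 0, against 46.8%. Of the 45, 40 were higher in liver and 5 higher in fat, against 32.4% and 38.4% of all genes. The 5 were Cfd, C1qa, C1qb, C1qc and Pros1. TMM factors differed strongly between the tissues, at 0.755 to 0.777 in WT liver and 1.32 to 1.35 in WT fat, and with library totals alone the median of all genes moved to -0.92, from -0.12. On that scale C2 was also higher in fat (-0.75, edgeR adjusted p = 0.0172), and C4b, with 0.74 under TMM, had -0.07 (adjusted p = 0.680). Cfb, with 1.36 under TMM, had 0.56 (adjusted p = 0.220) there. The direction of C2 and C4b between the tissues thus depends on the scaling, as does the call of Cfb. Pros1, at -0.40 (edgeR adjusted p = 0.0264), had -0.03 (0.820) with the trends on GC share and length removed and lost its call with the replicate block too (0.0508). It also lost it without WT liver 2 (0.0637), WT liver 3 (0.0797) or WT fat 3 (0.154). Levels in CPM are on the scale of library totals.

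In WT liver the highest levels per length were those of C3 (1244 CPM per kb), Fgg (1197), Fga (1138), Vtn (1128) and Fgb (752). The first 4 did not differ beyond their spread between libraries. In WT fat the order was Cfd, C3, C4b, Serping1 and C1qb. Cfd had 4.78 CPM per kb in WT liver and 2594 CPM per kb in WT fat, and C3 had 1244 CPM per kb in WT liver and 545 CPM per kb in WT fat. C4b had 304 CPM per kb in WT liver and 320 CPM per kb in WT fat, and Serping1 363.5 CPM per kb in WT liver and 262 CPM per kb in WT fat. C1qb, low in WT liver at 10.1 CPM per kb, had 116 CPM per kb in WT fat.

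The members fell into separate ranges by their fat level as a percentage of their liver level. In 13 members WT fat had at least 32.4% of the WT liver level, the lowest being C6. They were Cfd, the C1q chains, Pros1, C2, C4b, Cfb, C3, Serping1, C1s1, C1ra and C6. In the other 33 it was 0.640% to 9.51%, with F7 the highest and a median of 1.01%. The line between them, 20%, was set after these values were seen. The early components of the classical pathway (C1q, C1r, C1s, C4b, C2), C3 and the proteins of the alternative pathway (Cfb, Cfd) thus lay in the first range, and most of the terminal components, the lectins and, except Pros1, all coagulation members in the second. Cfb stood there on 33 to 40 counts per WT fat library and 39 to 62 per WT liver library. Its percentage was 67.9% in WT and 213.9% in KO. The limit on shared exon bases holds for Cfb and C2. Percentages are on the scale of library totals, where the tissue log2 fold change of C6 was 1.63, against 2.43 with TMM. The value with TMM puts C6 under the line of 20%, and in KO mice its percentage was 20.9%, close to that line. Alb itself stood at 0.766% in WT fat, and the 19 hepatocyte markers at a median of 0.919% (0.766% to 17.5%). WT fat 1 carried much of these levels. Without it, a calculation added after seeing the data, Alb stood at 0.112% and the 33 members at 0.0156% to 13.1% with a median of 0.181%, while the other 13 had at least 27.0%. The tissue log2 fold change of Fga was 7.56 with all libraries and 10.4 without KO fat 1 and WT fat 1. In KO mice, with all libraries, the median of the 33 members was 1.32% and Alb 1.27%.

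**Figure D4:**
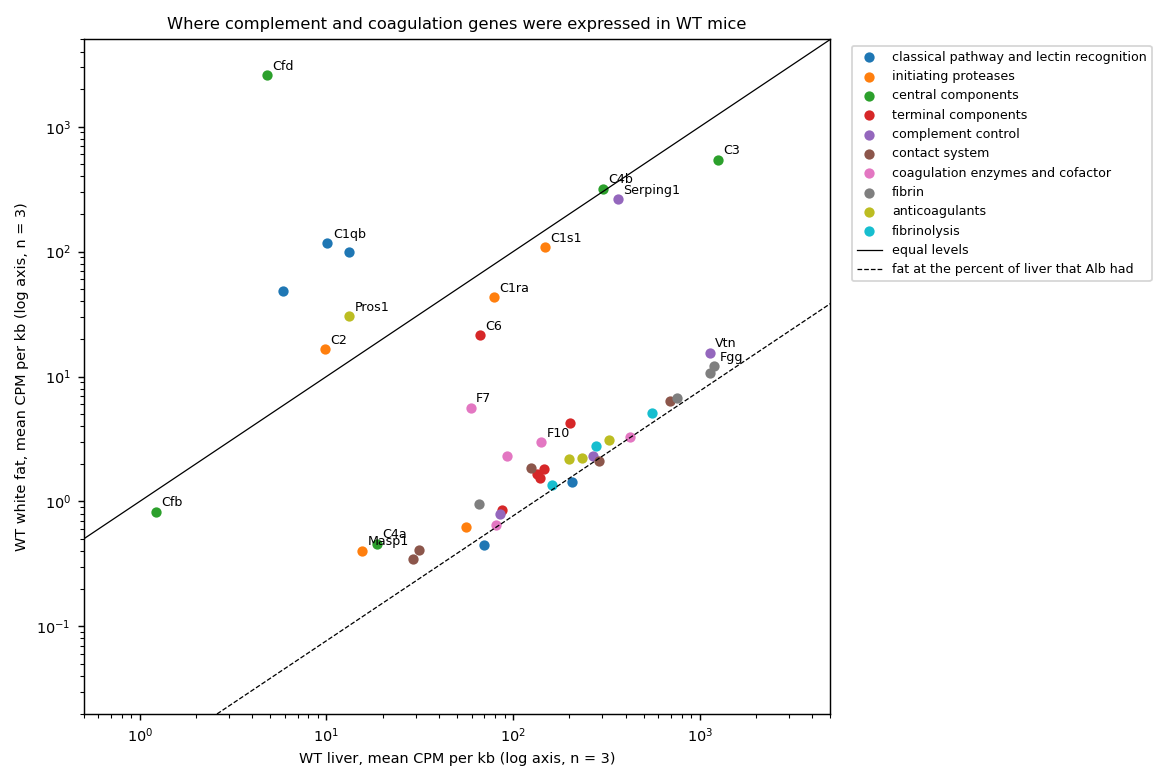
Mean level per length in WT liver (horizontal) and WT fat (vertical), both in CPM per kb on log axes, for the 46 members coloured by role. The solid line marks equal levels and the dashed line the share of its liver level that Alb had in fat, 0.766%. Most clotting genes lie near the dashed line, and Cfd, the C1q chains, Pros1, C2 and C4b lie above the solid one.

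The fat comparison asked for genotype effects in fat, and 0 of 45 tested members passed with edgeR, as did 0.0% of all 15919 tested genes. F11 had too few counts to be tested. At an unadjusted p under 0.05 there were 0 members, against 7.64% of all genes. DESeq2 called 0 members and 0.27% of all genes. Values were above 0 for 39 of 45 members, against 49.6% of all genes, with a median of 0.42. They were above 0 for 31 of the 32 tested members with fat under 20% of liver (median 0.54). The same held for 19 of 19 tested hepatocyte markers outside the members (median 0.54). Of the other 13 members, 8 were above 0 (median 0.11), and 4 with the trends on GC share and length removed. No member was free of overlap between the groups, against 7.05% of all genes with KO above and 7.80% with KO below. Without KO fat 1, 18 members had a value above 0.

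The 33 members with fat under 20% of their liver level had their high and low fat libraries largely where Alb did. Alb had 1977, 228 and 731 CPM in KO fat and 1863, 125 and 76.8 CPM in WT fat. For 28 of the 33, KO fat 1 and WT fat 1 were the highest pair, as for Alb, and this was so for 1 of the other 13. The share over all genes was not counted. Fga is an example of the 28, with 114, 15.6 and 37.0 CPM in KO fat and 87.8, 6.57 and 2.00 CPM in WT fat. Fgb had 102, 13.5 and 32.7 CPM in KO fat and 69.6, 4.88 and 2.55 CPM in WT fat, and Fgg 91.9, 10.6 and 29.8 CPM in KO fat and 65.6, 8.08 and 2.27 CPM in WT fat. KO fat 1 and WT fat 1 were high in all 3, and the log2 fold changes of 0.80 ± 1.58, 0.95 ± 1.52 and 0.81 ± 1.46 were smaller than their SE. Hepatocyte markers summed to 3020 to 5640 CPM in KO fat and 1190 to 6220 CPM in WT fat, with 0 of 19 absent from either group. These sums varied less than Alb. Alb made up 228 of 3840 CPM in KO fat 2 and 76.8 of 1190 CPM in WT fat 3, so other markers held most of these sums. For a ratio to Alb, counts were summed over a group, so KO fat 1 and WT fat 1 weighed most. In KO fat the 33 members had a median of 1.04 times their ratio in KO liver (0.799 to 7.64). In WT fat it was 1.32 times their ratio in WT liver (0.828 to 11.7). In WT fat 3, F7 had 25.5 CPM, Vtn 9.50 and Fga 2.00 beside 76.8 CPM of Alb. In WT liver 3 they had 96.85, 2157 and 3002 CPM beside 89120 CPM. The ratio to Alb was thus higher in WT fat 3 for F7 and Vtn and lower for Fga. How many members differed in this way was not counted. The part of the hepatocyte markers in the members' values was not tested. A fit with Alb as a covariate is described in the closing section, and its calls cannot decide this.

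**Figure D5:**
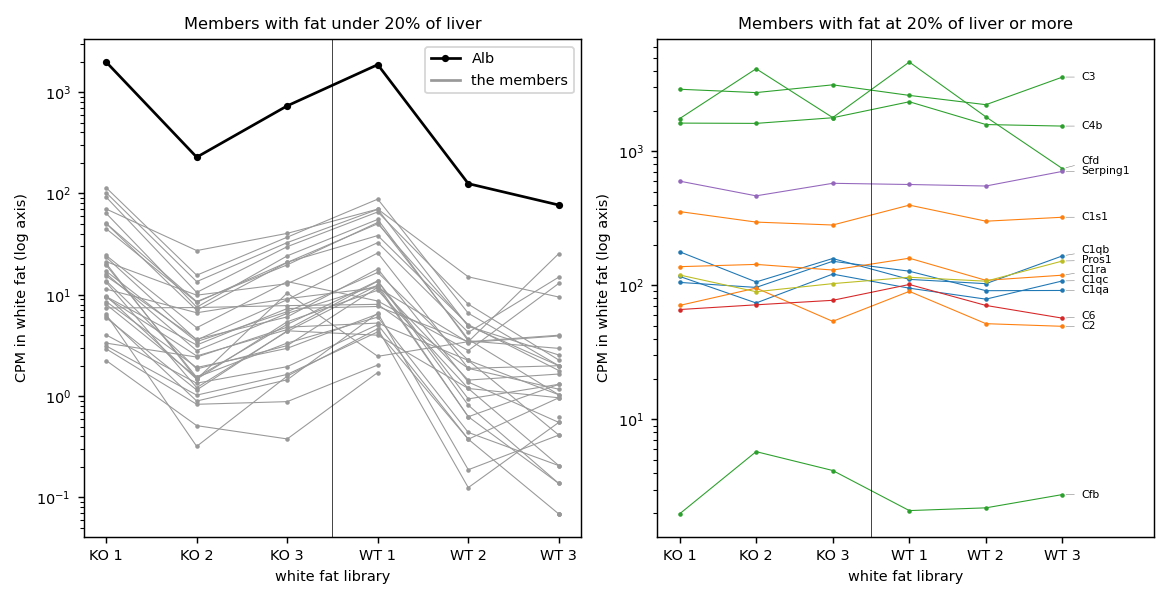
CPM in each fat library on a log axis, with lines joining the values of a gene. Left, Alb in black and the 33 members with fat under 20% of liver in grey, most of which have their highest values in KO 1 and WT 1 as Alb does. Right, the other 13 members, coloured by role, which vary less, apart from Cfd. Values of 0 are not drawn.

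Some of the 33 did not follow Alb, namely C4a, Masp1, Masp2, F7 and F10. Masp1 had 7.42, 7.48 and 7.82 CPM in KO fat and 8.04, 1.88 and 2.00 CPM in WT fat, so that its KO libraries were nearly equal. Its log2 fold change of 0.95 ± 0.54 did not pass (edgeR adjusted p = 0.682). Masp2 had 5.92, 1.15 and 4.41 CPM in KO fat and 3.99, 1.19 and 0.963 CPM in WT fat. F10, the protease that cleaves prothrombin, had 24.4, 4.73 and 13.5 CPM in KO fat and 8.68, 2.82 and 12.9 CPM in WT fat. These overlapped (0.91 ± 0.71 and 0.82 ± 0.74). F7, which starts clotting with tissue factor, had 20.3, 1.47 and 10.4 CPM in KO fat and 2.47, 3.44 and 25.5 CPM in WT fat, with WT fat 3 the highest library. C8g had 11.4, 6.65 and 9.14 CPM in KO fat and 11.8, 3.38 and 3.92 CPM in WT fat (0.53 ± 0.48). C4a had 3.33, 2.43 and 4.79 CPM in KO fat and 5.26, 2.25 and 1.03 CPM in WT fat, and made up 0.208% ± 0.060 of the C4 counts in KO and 0.144% ± 0.079 in WT fat (SD, n = 3 each; exact permutation p = 0.4, two-sided). Vtn had 70.1, 27.3 and 40.3 CPM in KO fat and 70.0, 15.0 and 9.50 CPM in WT fat. Hc had 23.5, 3.58 and 8.95 CPM in KO fat and 25.8, 1.88 and 1.17 CPM in WT fat, and Cpb2 8.03, 1.53 and 3.34 CPM in KO fat and 6.02, 0.438 and 0.206 CPM in WT fat. All 3 peaked in KO fat 1 and WT fat 1.

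The 13 members with fat at 20% or more of their liver level also overlapped between the genotypes in fat. C3 had 2901, 2739 and 3129 CPM in KO fat and 2610, 2225 and 3576 CPM in WT fat (0.08 ± 0.21). C4b had 1622, 1614 and 1778 CPM in KO fat and 2340, 1582 and 1541 CPM in WT fat (-0.10 ± 0.20). Both overlapped, and without WT fat 1 the sign of C4b turned (0.10). Cfd ranged most, with 1749, 4124 and 1783 CPM in KO fat and 4629, 1805 and 742 CPM in WT fat (0.13 ± 0.74). Serping1 had 599, 465 and 577 CPM in KO fat and 565, 551 and 708 CPM in WT fat (-0.13 ± 0.16). The C1q chains had 105, 96.5 and 151 CPM for C1qa, 178, 106 and 159 CPM for C1qb and 117, 73.9 and 121 CPM for C1qc in KO fat. In WT fat they had 128, 91.2 and 91.6 CPM for C1qa, 111, 103 and 166 CPM for C1qb and 95.3, 78.9 and 108 CPM for C1qc. The groups overlapped for each chain (0.20 ± 0.20, 0.24 ± 0.23 and 0.16 ± 0.19), and these signs turned when the trends on GC share and length were removed (-0.11, -0.03 and -0.10). The macrophage markers summed to 918 to 2710 CPM in KO fat and 1300 to 3110 CPM in WT fat, and their part in the C1q values was not tested. Pros1 had 120, 89.6 and 103 CPM in KO fat and 115, 107 and 152 CPM in WT fat (-0.24 ± 0.16). Cfb had 1.97, 5.75 and 4.16 CPM in KO fat and 2.09, 2.19 and 2.75 CPM in WT fat (0.79 ± 0.42, edgeR adjusted p = 0.672), with the limit on shared exon bases given for liver.

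The genotype effect in fat was also set against that in liver, as fat minus liver, with all 12 libraries fitted together. The difference passed for 0 of 46 members and for 0.0% of 16857 genes with edgeR, for 0 of 46 members with limma voom, and for 0 of the 30 members to which DESeq2 gave an adjusted p; it gave none to the other 16. At an unadjusted p under 0.05 there were 2 members, against 13.4% of all genes. The difference was above 0 for 30 of 46 members, against 49.8% of all genes. The 2 were Pros1, with a difference of -0.61 ± 0.21, and Cfb, with 1.63 ± 0.57 (edgeR adjusted p = 0.260 and 0.265). Pros1 had a value under 0 in fat and above 0 in liver, and Cfb the reverse. In a fit, chosen after seeing the data, without KO fat 1 and WT fat 1, the libraries highest in Alb, 13 members and 4.16% of all genes passed (Masp1 1.65, edgeR adjusted p = 0.00468). In the fat libraries left, Alb had 228 and 731 CPM in KO and 125 and 76.8 CPM in WT. Alb itself thus did not overlap between the genotypes there, and its part in the 13 calls was not tested. Without WT fat 1 alone, Masp1 passed with 1.63 (0.00926), where 0.197% of all genes did.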

How the data were processed

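A directional NEBNext kit was used on 2 µg of total RNA, per the labels' protocols. The authors deposited whole-number read counts per Ensembl gene, not normalised as far as the values show, with a gene length column in bases. CASAVA 1.8, HISAT2 and the builds GRCm38 and mm10 are named per the submitters' processing notes. No source used here gives the counter, the annotation or whether strand was used.

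Columns were matched to samples by name. CPM was computed from library totals, and level per length is CPM per kb of the deposited length. Within groups, no library was a copy of another by sampling noise (a chi-square of 9.01 to 69.7 times its degrees of freedom) and each counted as 1 sample. Counts were fitted in R 4.3.3 by the quasi-likelihood test of edgeR 4.0.16, robust, after filterByExpr and TMM scaling, each tissue alone for genotype and all 12 libraries for the difference of effects and for WT liver minus WT fat. P-values were adjusted by Benjamini-Hochberg over all tested genes, with a threshold of 0.05. Log2 fold changes are given with their SE. For edgeR it was derived as the absolute log2 fold change divided by the square root of the F statistic. Such an SE is unreliable for values near 0. For the difference of F11 between tissues it was 0.127, against 1.37 with DESeq2. The fits were tested on simulated data. Transcript GC share came from GENCODE M21, where 44 of 46 members had the same start and end, and promoters from RefSeq. Exact tests used scipy 1.17.1.

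Alternatives were DESeq2 size factors, no filter or at least 1 CPM in 3 libraries, DESeq2 1.42.0, limma 3.58.1 voom, the replicate number as a block, lowess removal (span 0.3) of GC share and length trends, all groups in 1 fit and leaving out each library. Some genes of the lists and 1 of the motifs searched are not reported here. Although the rule reads symbols alone, the members and lists were chosen with earlier results of these data known. Values per library are given for members called, the 6 with the smallest p per tissue, the 5 with the highest level per length per tissue, and the fibrinogen, C1q and C4 genes. Further pathway genes are named where they have one of the 3 smallest p per tissue, with library values for F2r. The library values of C8a, F2, F7, F12 and Proc, and of Alb and Apcs, were added after they were seen.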

Additional observations from a re-analysis of the deposited data

How the results depend on the processing

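With 3 libraries a group, the SEs in liver were near 0.1 for most members, and in fat they exceeded 1 for many, so smaller differences were not detectable there. Reads of C4a and C4b may have been shared, as may those of Cfb and C2 with Gm20547. The same holds for members that overlap a gene on the other strand (Plg, Serpinc1, Serpind1, C8g, Masp1, Masp2 and C2). No source used here gives the counting settings. Of the alternatives, 142 results that count members kept within 1.5 times of their value and 14 did not. Except where named, the cause of a change was not tested.

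In liver, members called were 7 with no filter, where 1.51% of all genes were called (Fgb, Fgg, Hc, C9, Masp1, C4a and F11), 3 with DESeq2, and 0 with limma voom, with the replicate block, with the replicate block and the trend on GC share and length removed, and with all 4 groups in 1 fit. Leaving out single libraries gave 0 to 1. The replicate numbers were taken as no pairing. The correlation of same-numbered KO and WT libraries was -0.0915, -0.0704 and 0.122 in liver and -0.0499, 0.264 and 0.0590 in fat. Between fat and liver it was -0.0695, 0.0432 and -0.0821 in KO and 0.105, 0.0580 and 0.0103 in WT. Not every library correlated best with its own number. The labels do not say whether liver and fat of 1 number came from 1 animal. The main fits of all 12 libraries treated them as independent. The block ended the call of C4a and changed no other call of a member between the genotypes. In fat, members above 0 numbered 18 to 41 without single libraries. For the difference between tissues, members called were 0 to 1 and members above 0 were 15 to 38 without single libraries, and members called were 13 without the 2 fat libraries highest in Alb. The last setting, log2 Alb CPM as a covariate and library totals without TMM factors were chosen after seeing the data. With the covariate, 0 members were called in fat. The main fat fit called 0 of 15919 genes too, so this count cannot show what part Alb had.

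For single members, 1045 results kept sign and side of the threshold, 8 passed newly, 7 no longer passed and 54 turned their sign; those that turned did not pass in any setting. Log2 fold changes that turned in liver were C1qc (-0.00454 with limma voom, -0.00169 with the replicate block, -0.0135 with library totals), Cfd (-0.259 and -0.0941 with the first 2 of these), Plg (-0.00301) and Serpinc1 (-0.0031) with library totals. With the trend on GC share and length removed, alone and with the block, they were Vtn (0.0878 and 0.0784), F5 (-0.0240 and -0.0250), F10 (0.0357 and 0.0378) and Serpinc1 (-0.0289 and -0.0286). In fat they were C1qa (-0.112 and -0.116), C1qb (-0.0253 and -0.0246) and C1qc (-0.102 and -0.122) with the same pair of settings, Cfd with the trend removed (-0.158) and C6 with trend removal and block (0.0201). Without the 2 fat libraries highest in Alb they were C1qb (-0.0121), C4b (0.131) and C6 (0.232). Trend removal also moved the tissue median of all genes to 0.17, from -0.12.

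Signs also turned when single libraries were left out, with these ranges. In liver they were -0.126 to 0.186 for C1qc, -0.0727 to 0.195 for C3, -0.941 to 1.16 for Cfd, -0.164 to 0.108 for Vtn, -0.00499 to 0.107 for F5, -0.0369 to 0.108 for F7, -0.0813 to 0.0365 for F10, -0.0388 to 0.0880 for Plg and -0.00933 to 0.0671 for Serpinc1. In fat they were -0.00539 to 0.363 for C1qa, -0.0286 to 0.542 for C2, -0.0625 to 0.283 for C3, -0.219 to 0.0987 for C4b, -0.255 to 0.166 for C6, -0.432 to 1.01 for Cfd, -0.264 to 3.66 for Fga, -0.129 to 3.70 for Fgb, -0.307 to 3.06 for Fgg and -0.0843 to 1.08 for C4a.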

Other observations

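Of 53 further complement, coagulation and fibrinolysis genes, a list chosen for its function, 40 were tested in liver and 44 in fat. By edgeR's quasi-likelihood test 0 passed in either tissue. At an unadjusted p under 0.05 there were 6 in liver and 2 in fat, against 12.2% and 7.64% of all genes. Their median log2 fold changes were 0.02 in liver and -0.15 in fat, with 20 of 40 and 19 of 44 above 0. Among those with the smallest p in liver were F2r, the thrombin receptor, and the lectin Colec11. F2r had 42.3, 45.1 and 49.3 CPM in KO liver and 36.8, 28.8 and 32.4 CPM in WT liver (0.51 ± 0.12, edgeR adjusted p = 0.136). Its groups did not overlap, nor did those of Colec11, which lay lower in KO (-0.38 ± 0.11, edgeR adjusted p = 0.250). In fat the 3 with the smallest p were Cd46 (-0.50 ± 0.21), the tissue factor inhibitor Tfpi (-0.49 ± 0.21) and the complement receptor Cr2 (-1.51 ± 0.67), each with an edgeR adjusted p of 0.649 or 0.650. Between the tissues, 48 were tested, of which 30 were lower in WT liver than in WT fat and 16 higher (edgeR adjusted p under 0.05). The shares over all genes were 38.4% and 32.4%. Several genes that complete the cascades were among the 30. The pore component C7 had 0.317 CPM per kb in WT liver and 20.3 CPM per kb in WT fat. F13a1, the catalytic partner of F13b, had 0.00988 CPM per kb in WT liver, which is at the level of single counts, and 31.2 CPM per kb in WT fat.

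Of 22 acute phase genes outside the members, 21 were tested in liver. Values were above 0 for 18, against 49.9% of all genes, with a median of 0.38, and 0 passed (lowest edgeR adjusted p = 0.0562, for Apcs). At an unadjusted p under 0.05 there were 13 of 21, against 12.2% of all genes. Apcs, serum amyloid P, had 83.9, 87.4 and 93.9 CPM in KO liver and 49.3, 61.1 and 38.7 CPM in WT liver. A list of 16 transcription factors, receptors and signalling genes chosen for these genes had 7 values above 0 and 9 below in liver. They ran from -0.442 to 0.682. Among them, values were -0.27 ± 0.14 for Hnf4a, -0.22 ± 0.12 for Cebpb and 0.30 ± 0.10 for Stat3. An unadjusted p under 0.05 was reached by 4, against 12.2% of all genes. In all, 0 of the 16 tested passed (lowest edgeR adjusted p = 0.189, and 0.278 or more for the 3 named).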
